A study of Corbicula fluminea with 24 samples.

Results

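Vitellogenin is the precursor of egg yolk protein, and in the digestive gland libraries of 24 Asian clams its transcript level differed widely between clams of the same caging site. The set described here holds the 47 named transcripts that rose and fell with it most closely from clam to clam. They were found in the table of raw counts, which has 58291 rows, each an assembled contig (a reconstructed transcript). Names that begin with contig_ or LOC or hold the sign _ other than in _bis were dropped, which left 1627 rows. Of these, 1457 had a mean of at least 1 CPM (counts of a row divided by the library's total and scaled to a fixed total). Values of log2(CPM + 1) were taken, each site's mean was subtracted, and the 50 rows with the highest Pearson correlation to the vitellogenin contig Vg.1.2 over the 24 clams were kept. Vg.1.2 itself counts among the 50. It was removed together with the other vitellogenin contig, Vg.2.2 (r = 0.998), and the mitochondrial COX3 (r = 0.891), which left 47 members. The rule drops vitellogenin, the muscle names MYS, MYSP and ABRA, and the transporter names SC6A8 and slc6a8. It also drops names that begin with COX, ND, RL, RS, rpl or rps, while other mitochondrial names stay. The correlation with Vg.1.2 chose the members, so it is given below as a description without a test. The site means were subtracted beforehand, so the differences between sites played no part in the choice.

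The study is of Corbicula fluminea, a freshwater bivalve, and sequenced total RNA of the digestive gland. Clams were caged between December and March in 3 places, 8 clams in each, and every clam gave 1 library. The reference group came from a reference site, the WWTP group from below the outlet of a wastewater treatment plant, and the runoff group from below an effluent of urban stormwater. All 24 clams are of 1 species and tissue and had the same caging period, and the labels name no further treatment, genotype, age or sex. Each site had 1 caging, so a site and its cage cannot be told apart, and p-values below measure the spread between individual clams. Library totals lay between 40.4 M and 97.7 M counts. Unless stated otherwise, levels below are CPM on library sizes scaled with TMM factors (edgeR's correction for composition).

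Vitellogenin is a large lipoprotein that the growing oocyte takes up through receptors of the low-density lipoprotein receptor family and breaks down as food for the embryo. In bivalves its transcript is best known from the ovary, where oocytes and the follicle cells around them mature together, and the gonad of many bivalves lies against or around the digestive gland. Dividing cells depend on spindle tubulin, on kinetochore proteins that hold chromosomes to the spindle, and on the anaphase-promoting complex, which marks proteins for destruction so that sister chromosomes can part. The table pairs no description or source species with a name, so each role below is what the gene of that name does in other animals. Endings such as 1.2 mark contigs that share a name, and reads may be divided among them.

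Vitellogenin varied widely within every site. Vg.1.2 had a lowest, median and highest level of 459, 2012 and 3751 CPM in reference clams, of 110, 1603 and 6325 CPM in WWTP clams, and of 45.3, 1004 and 3481 CPM in runoff clams. All 3 ranges overlapped over most of their length. In the test across all contigs, Vg.1.2 gave a log2 fold change of -0.02 (SE 0.641) for WWTP against reference, -0.43 (SE 0.642) for runoff against reference and 0.41 (SE 0.642) for WWTP against runoff, and none passed (edgeR adjusted p = 0.995, 0.956 and 0.875). The same few clams set the ends of the scale for nearly all members. Runoff individual 60, the lowest in Vg.1.2, was also lowest for 35 of the 47 members, and WWTP individual 48, the next lowest, for 11. WWTP individual 33, the highest, was highest for 25 members and within the top 6 clams for all 47.

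**Figure D1:**
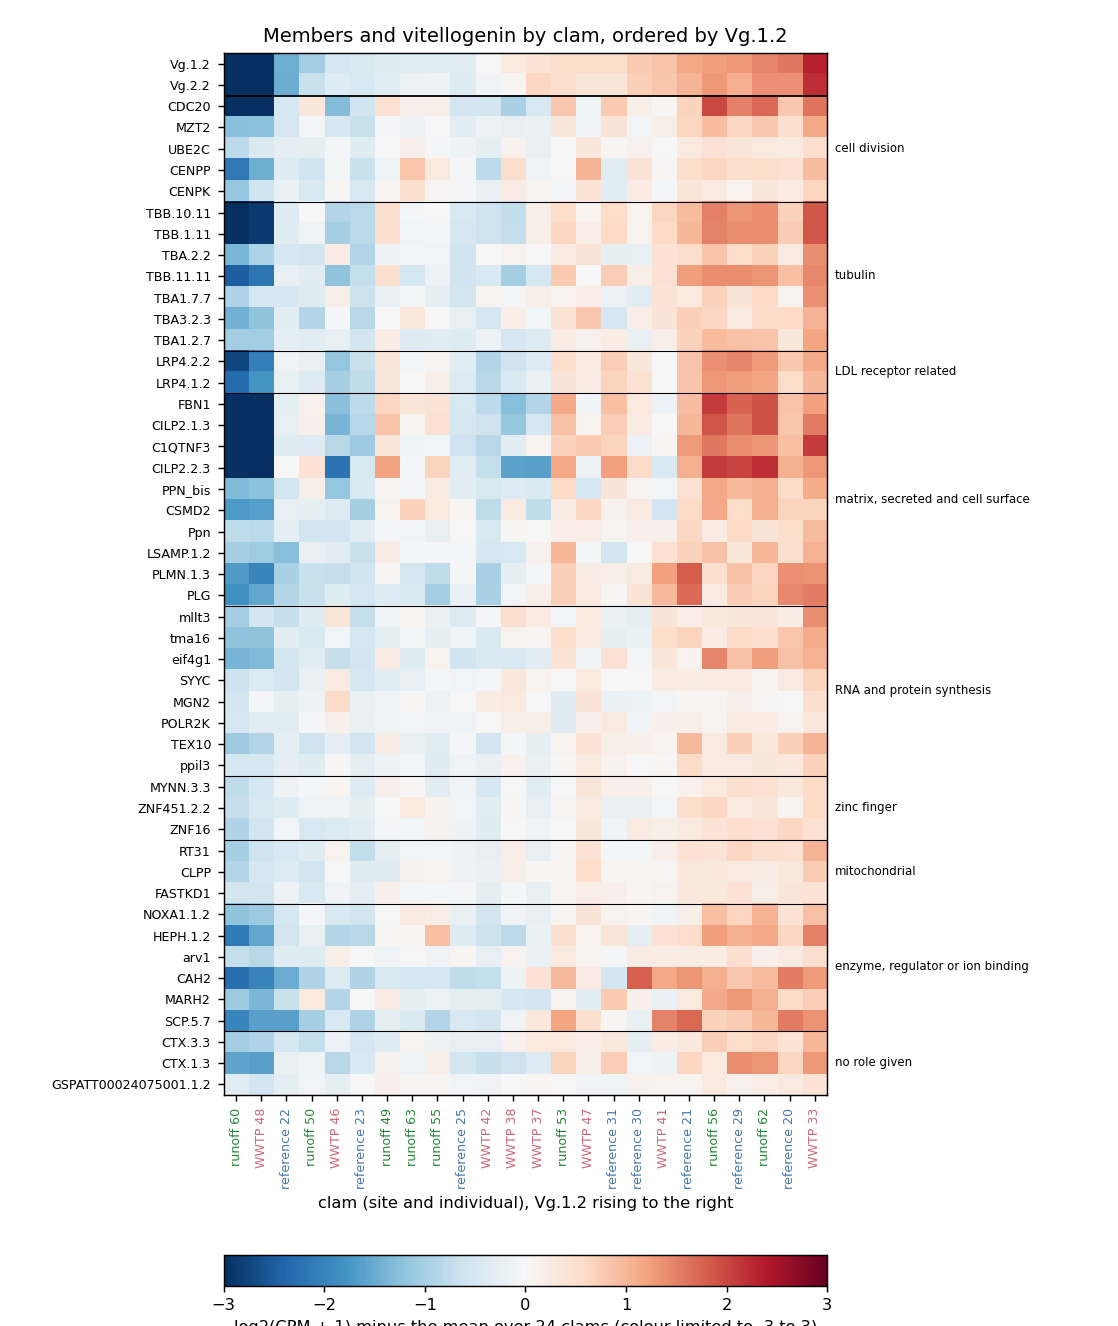
Levels of Vg.1.2, Vg.2.2 and the 47 members in each clam, as log2(CPM + 1) minus the row's mean over 24 clams (colour, limited to -3 to 3). Columns are clams ordered by Vg.1.2, with the site in the label colour, and rows are grouped by role. Nearly every row runs from blue at the left, where runoff 60 and WWTP 48 stand, to red at the right, where WWTP 33 stands, and the colours are palest for the zinc finger and mitochondrial rows.

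A digestive enzyme transcript and a muscle transcript also varied with vitellogenin in these libraries. The endoglucanase GUN, a cellulose-digesting enzyme of the gland, spanned 2.74 to 1077 CPM and had r = -0.63 with Vg.1.2 after site means were subtracted. The 2 clams lowest in Vg.1.2 had 686 and 779 CPM of GUN, and the 5 clams highest in Vg.1.2 included 1, reference individual 29, with a high GUN level of 454 CPM. Members had r between -0.84 (SCP.5.7) and -0.53 (CENPP) with GUN, and 33 of the 47 were more negative than Vg.1.2. With the muscle myosin MYS.1.2 they had r between 0.46 and 0.82, against 0.59 for Vg.1.2. The log2 library total itself had r = -0.57 with Vg.1.2. The part of tissue makeup or depth in what follows was not tested, and in such bulk samples fewer cells of a type and less RNA per cell cannot be told apart.

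Among the 5 members of the cell division machinery, CDC20 followed vitellogenin more closely than any other member (r = 0.967). CDC20 activates the anaphase-promoting complex. Its lowest, median and highest levels were 12.1, 25.6 and 54.9 CPM in reference clams, 1.40, 12.7 and 58.5 CPM in WWTP clams, and 1.40, 24.9 and 76.2 CPM in runoff clams. The 3 sites overlapped, and the 2 lowest values of 1.40 CPM belong to the same clams that were lowest in Vg.1.2. UBE2C, the ubiquitin-conjugating enzyme that works with that complex, had r = 0.911 but moved little. Its levels ran from 40.3 to 67.9 CPM in reference, 38.5 to 74.9 CPM in WWTP and 30.1 to 71.6 CPM in runoff clams, with medians of 55.6, 51.1 and 52.5 CPM. MZT2, a small protein of the complex that nucleates spindle microtubules, had r = 0.939 and a mean of 3.60 CPM. CENPP (r = 0.891) and CENPK (r = 0.880) are parts of the inner kinetochore, with means of 17.1 and 5.43 CPM. CENPP spanned a 12.05-fold range over the clams and CENPK a 4.73-fold range.

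A list of 19 cell division names was drawn up after the names, and in part their correlations, had been seen, and it includes the 5 members, whose r the rule fixes. The other 14 names all had r above 0 with Vg.1.2, with a median of 0.73, and 4 of the 14 were above 0.8. Over the 1408 named rows that are neither members nor vitellogenin, 9.23% had r above 0.8 and 29.1% below 0. Since some of the 14 names were picked with their correlations known, their values describe the names and nothing is read from them. RIR2, the small subunit of the ribonucleotide reductase that makes DNA building blocks, had r = 0.847 and ran from 7.83 to 79.6 CPM in runoff clams. The cyclins CCNB (r = 0.757) and CCNA (r = 0.671) and the spindle motor KIF15 (r = 0.851) are among them, and ZW10, a kinetochore protein of the spindle checkpoint, had r = 0.311. Of these 19 names, 0 were called in any of the 3 site comparisons in edgeR. Of all contigs, 1.47% were called for WWTP against reference, 0.116% for runoff against reference and 1.06% for WWTP against runoff. At shares this low, a count of 0 among 19 names says nothing about them.

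The 7 tubulin members are the most abundant group by reads. TBB.10.11 and TBB.1.11, named as beta tubulins, both had r = 0.966 with Vg.1.2 and, between themselves, r = 0.9993, the closest of the 1081 pairs of members. TBB.10.11 had a lowest, median and highest level of 101, 226 and 445 CPM in reference clams, 23.4, 152 and 647 CPM in WWTP clams, and 15.01, 210 and 502 CPM in runoff clams. The sites overlapped, with WWTP individual 33 at the top and runoff individual 60 at the bottom. TBB.1.11 spanned 10.3 to 482 CPM over all clams. TBB.11.11 (r = 0.932) had a mean of 307 CPM and spanned 42.6 to 664 CPM. Of the alpha tubulins, TBA3.2.3 had the highest mean of all members, 688 CPM, and spanned 231 to 1282 CPM (r = 0.896). TBA.2.2 (r = 0.935), TBA1.7.7 (r = 0.905) and TBA1.2.7 (r = 0.891) had means of 150 CPM, 29.9 CPM and 138 CPM. Contig lengths are not in the table, so levels of different contigs compare reads and not molecules.

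Most tubulin contigs were not members. Of 11 contigs named TBB, 3 were members, and r over the 11 ran from -0.32 (TBB.4.11) to 0.966. The most abundant of them, TBB.9.11, at a mean of 1756 CPM, had r = 0.822 and spanned only 1082 to 3040 CPM. Of 12 contigs named TBA, TBA1 or TBA3, 4 were members. TBA1.6.7 went the opposite way, with r = -0.65 to Vg.1.2 and r = 0.98 to GUN, and ranged from 48.8 to 937 CPM. Of 24 contigs on a list of cilium and tubulin names, 7 are members, whose r the rule fixes. Of the other 17, 14 had r above 0 and 3 above 0.8, all 3 of them tubulins. Over the 1408 named rows that are neither members nor vitellogenin, 9.23% had r above 0.8 and 29.1% below 0. The axoneme protein cfap44 had r = 0.49. It is also among 6 cilium names chosen after the names were seen, of which the 5 with a mean of 1 CPM or more had r from 0.46 to 0.76.

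LRP4 is a receptor of the low-density lipoprotein receptor family, the family that also holds the yolk receptors, and is best known in vertebrates for the nerve-muscle junction. Both LRP4 contigs of the table were members. LRP4.2.2 (r = 0.952) stood at a lowest, median and highest level of 13.8, 33.7 and 64.2 CPM in reference clams, 4.73, 15.9 and 50.5 CPM in WWTP clams, and 2.55, 26.6 and 59.8 CPM in runoff clams. LRP4.1.2 (r = 0.946) ran from 2.49 to 41.2 CPM and followed LRP4.2.2 with r = 0.995, and reads may be divided between these 2 contigs. Other receptors of the family in the table had lower correlations. VLDLR, the name of the yolk receptor of birds, had r = 0.45 with Vg.1.2, and LRP1 had r = 0.07.

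**Figure D2:**
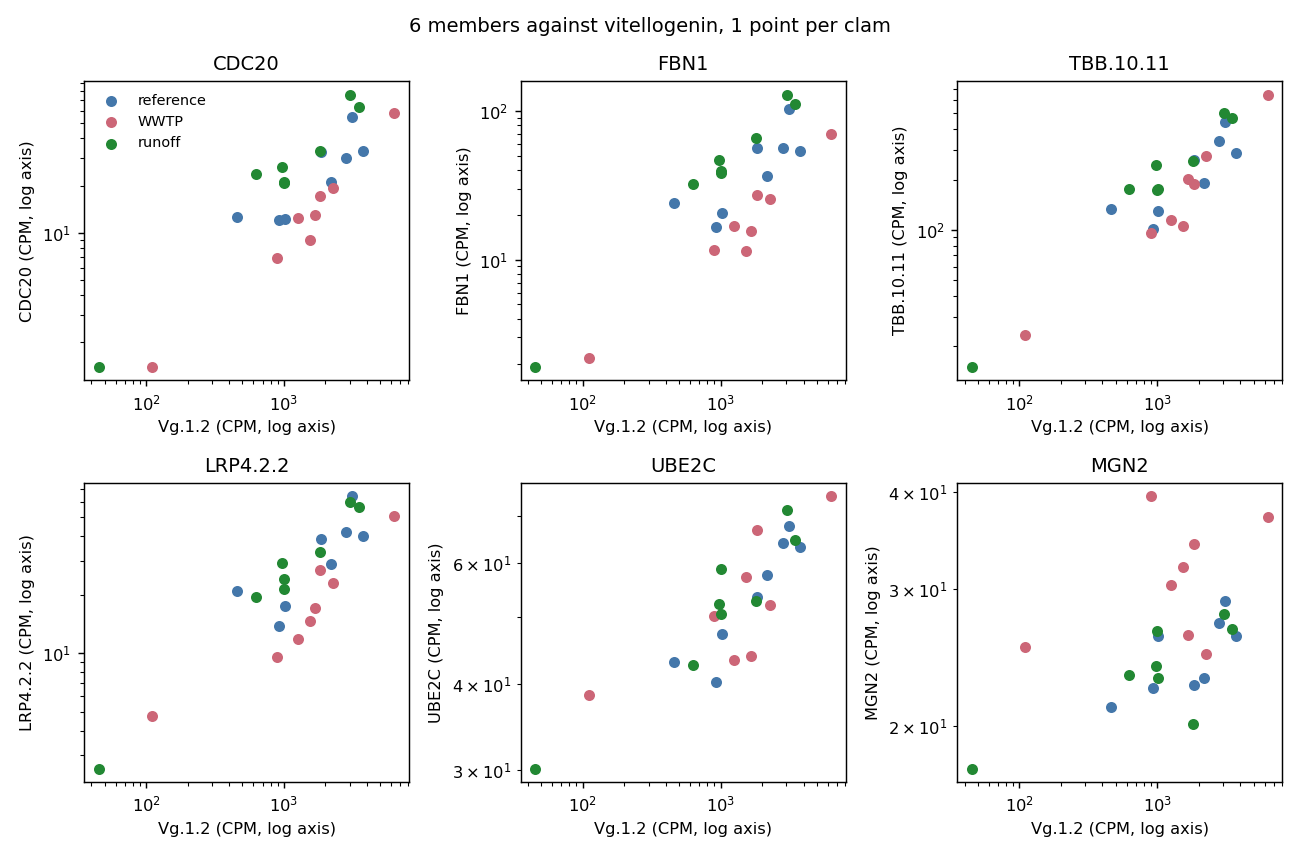
Level of 6 members (vertical, CPM, log axis) against Vg.1.2 (horizontal, CPM, log axis), 1 point per clam, coloured by site. CDC20, FBN1, TBB.10.11 and LRP4.2.2 rise steeply along the horizontal axis with runoff 60 and WWTP 48 at the lower left, UBE2C rises over a narrow span, and MGN2 on this scaling shows a loose relation with the WWTP clams above the others. In the FBN1 and CDC20 panels the WWTP clams lie below runoff clams of like Vg.1.2.

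The 10 members that build extracellular matrix, are secreted or sit on the cell surface include those with the steepest relation to vitellogenin. FBN1, fibrillin, which forms microfibrils of the matrix, had r = 0.962. It stood at a lowest, median and highest level of 16.5, 44.9 and 103 CPM in reference clams, 2.18, 16.1 and 70.5 CPM in WWTP clams, and 1.90, 42.9 and 129 CPM in runoff clams. The WWTP clams lay low within an overlapping range. CILP2.1.3 (r = 0.961) and CILP2.2.3 (r = 0.941) are named for a cartilage matrix protein of vertebrates. CILP2.1.3 spanned 14.7 to 769.97 CPM with a mean of 289 CPM. CILP2.2.3 had the widest range of all members, 82.9-fold, from 2.96 to 245 CPM, and its median was 94.4 CPM in reference, 23.9 CPM in WWTP and 101 CPM in runoff clams. C1QTNF3 (r = 0.956), a secreted protein with a C1q domain, spanned 7.73 to 391 CPM.

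The other members of this group followed vitellogenin less steeply. PPN_bis (r = 0.918) and Ppn (r = 0.887) are named for papilin, a matrix glycoprotein. PPN_bis, with a mean of 2.03 CPM, fell to 0.0815 CPM and 6 counts in its lowest library. Such levels are near the 0.0323 to 0.0792 CPM that a count of 0 allows, so its 61.2-fold range is uncertain. PLMN.1.3 (r = 0.882) and PLG (r = 0.879) are named for plasminogen, a secreted protease precursor, and both were highest in reference individual 21, at 101 and 35.4 CPM, rather than in the clam with the most Vg.1.2. CSMD2 (r = 0.900) and LSAMP.1.2 (r = 0.885), named for cell surface proteins of the vertebrate brain, had means of 10.3 and 2.99 CPM. On a list of 21 matrix names the 14 contigs with a mean of 1 CPM or more went both ways, 5 with r above 0 and 9 below, and only FBN1 and the collagen CO4A1 (r = 0.81) were above 0.8.

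The 8 members of RNA and protein synthesis, with 1 exception, spanned less than 8-fold over the clams. The exception is eif4g1 (r = 0.909), the scaffold that brings ribosomes to capped mRNA, which ran from 0.408 to 9.19 CPM. mllt3 (r = 0.933), part of the complex that releases paused RNA polymerase, had medians of 5.72 CPM in reference, 8.94 CPM in WWTP and 6.38 CPM in runoff clams. SYYC, the tyrosyl-tRNA synthetase, spanned only 2.55-fold around a mean of 35.4 CPM (r = 0.902). POLR2K, a small subunit shared by the nuclear RNA polymerases, spanned 2.21-fold, from 1.82 to 4.02 CPM (r = 0.887). MGN2, of the exon junction complex that marks spliced mRNA, had r = 0.891 and the flattest relation of all members, and spanned 2.25-fold. The ribosome assembly factors tma16 (r = 0.910) and TEX10 (r = 0.882) had means of 16.5 and 27.9 CPM, and the splicing-associated cyclophilin ppil3 (r = 0.877) had a mean of 7.72 CPM.

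The remaining members form small groups. The zinc finger proteins MYNN.3.3, ZNF451.2.2 and ZNF16 had r of 0.889, 0.880 and 0.877 and ranges of 2.89-fold, 3.88-fold and 3.33-fold. The mitochondrial members were RT31, a protein of the mitochondrial ribosome, CLPP, a matrix protease, and FASTKD1, an RNA-binding protein, with r of 0.906, 0.905 and 0.895. FASTKD1 had the narrowest range of all members, 2.1-fold, from 7.99 to 16.8 CPM. Of the enzymes and regulators, NOXA1.1.2, named for an activator of an NADPH oxidase, had r = 0.942 and ran from 1.957 to 13.1 CPM. HEPH.1.2 (r = 0.923) is named for a copper enzyme that oxidises iron, and ran from 0.408 to 16.6 CPM. CAH2, a carbonic anhydrase (r = 0.892), SCP.5.7, named for a calcium-binding protein (r = 0.877), and MARH2, a ubiquitin ligase (r = 0.881), spanned 18.8-fold, 14.7-fold and 30.1-fold, and arv1, of sterol transport (r = 0.918), 3.63-fold. CTX.3.3 had the lowest mean, 1.21 CPM, and 0 counts in runoff individual 60 (r = 0.913). CTX.1.3 (r = 0.893) spanned 75.4-fold from 7 counts in its lowest library, and GSPATT00024075001.1.2 (r = 0.889) 2.32-fold. No role is given for these last names.

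**Figure D3:**
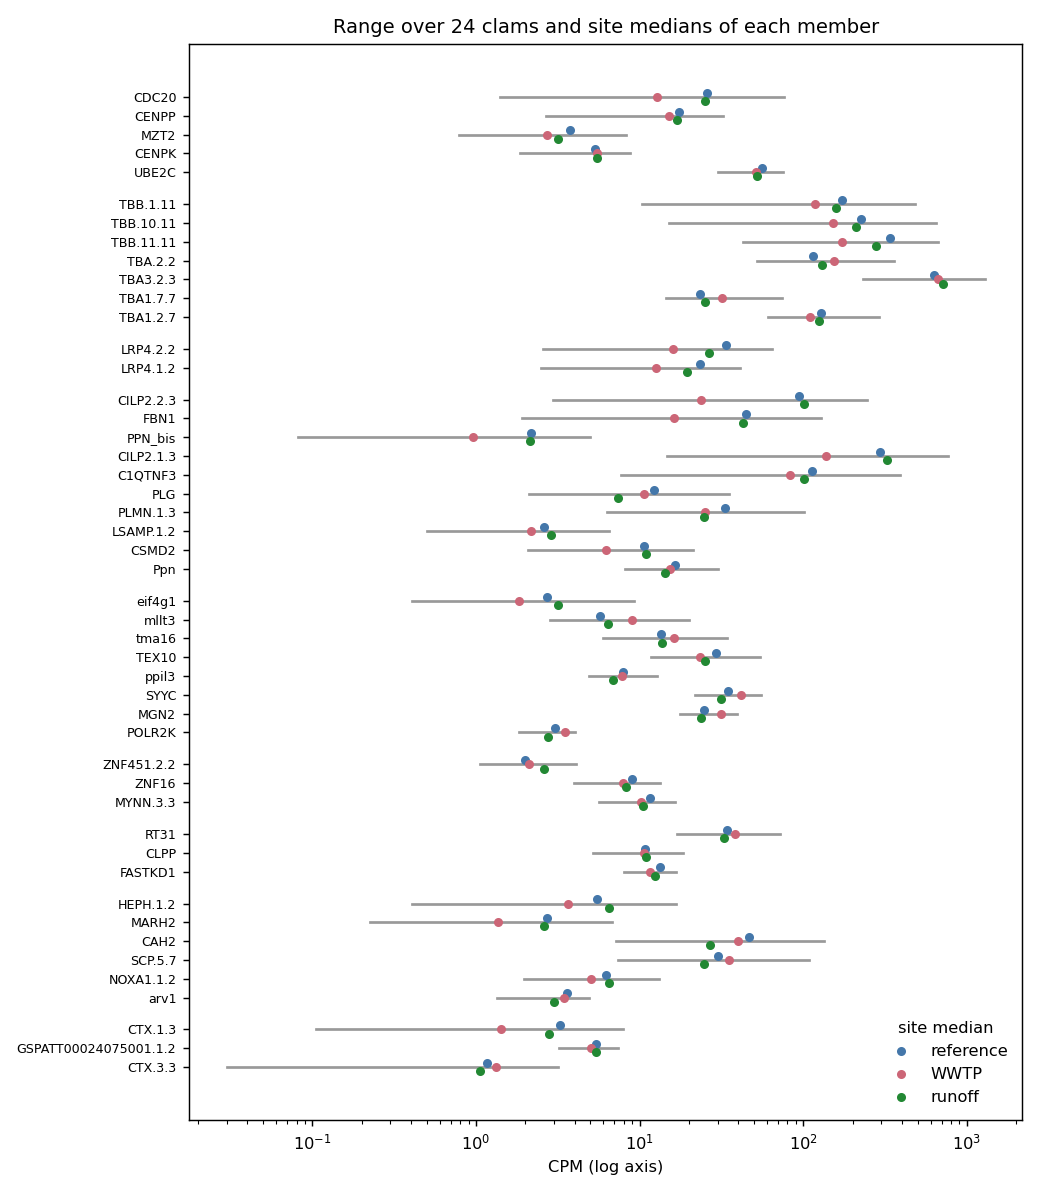
Range of each member over 24 clams (grey line, CPM, log axis) with the median of the 8 clams of each site (points), grouped by role. CILP2.2.3, CTX.1.3, FBN1 and PPN_bis have the longest lines among members with no count of 0, and FASTKD1, POLR2K and MGN2 the shortest. The red WWTP medians lie left of the others for many members, among them FBN1, CILP2.2.3, CDC20 and MARH2. For some, such as mllt3 and MGN2, they lie right of the others.

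The members differed in how far they moved along Vg.1.2. On CPM of library totals, the scale of the member rule, the slope of log2(CPM + 1) of a member on that of Vg.1.2, within sites, ran from 0.14 (MGN2) to 0.85 (CILP2.2.3) with a median of 0.39, and was above 0.5 in 15 members. On TMM-scaled levels it ran from 0.079 (MGN2) to 0.86 (CILP2.2.3) with a median of 0.36. A slope of 1 would mean a change in proportion to Vg.1.2, and the added 1 lowers the slope of members near 1 CPM. Over the clams, 23 members spanned more than 10-fold and 8 less than 3-fold. Between members, r ran from 0.67 (MARH2 with CENPK) to 0.9993 with a median of 0.90. The rule raises these values, though it does not fix each of them, since every member has r of 0.877 or more to the same Vg.1.2 values. They are given as a description. FBN1 and CILP2.1.3 had r = 0.995 with each other, and CDC20 and FBN1 r = 0.992, both above the r of either with Vg.1.2. All of these correlations share the same 24 libraries and library totals.

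The correlation held within each site and lane to different degrees, though the same clams chose the members. It lay between 0.76 (CENPK) and 0.96 in reference clams, between 0.82 and 0.97 in WWTP clams and between 0.87 and 0.996 in runoff clams, 8 clams each. Without the 2 clams lowest in Vg.1.2 it lay between 0.75 (CENPP) and 0.95, with 45 of 47 members above 0.8. Without the 6 clams lowest in GUN it lay between 0.83 and 0.96. On TMM-scaled levels in place of library totals, which the member rule uses, the median r was 0.88 and 46 members were above 0.8. The exception was MGN2, at r = 0.60, and the TMM factors themselves had r = 0.65 with Vg.1.2. When the rule was rerun on that scaling, 41 of the 47 members were again among the top 50, and MGN2 was not.

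The end of the set is not a natural break. The last members in order were ppil3, ZNF16 and SCP.5.7, each with r = 0.877 and means of 7.72, 8.61 and 41.6 CPM. The next rows, outside, were LLPH (r = 0.875, mean 46.3 CPM), FAM173B (r = 0.874, 10.3 CPM) and kcp_bis (r = 0.873, 7.87 CPM). Among the 47834 rows of any name with a mean of 1 CPM or more, 849, or 1.77%, had a correlation at least as high as the last member, against 3.43% of the named rows.

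Contigs that share a name with a member went several ways. There were 37 other contigs with the base name of a member, 35 of them with a mean of 1 CPM or more. Of these 9, or 25.7%, had r above 0.8 and 5, or 14.3%, below 0. Over the 1408 named rows that are neither members nor vitellogenin, 9.23% had r above 0.8 and 29.1% below 0. The difference between these shares was not tested. The highest were SCP.7.7 (r = 0.870), PLMN.3.3 (0.869), TBA1.5.7 (0.857), cilp2.2.2 (0.853), SCP.6.7 (0.849), ZNF451.1.2 (0.843), TBB.9.11 (0.822), CTX.2.3 (0.813) and TBA1.4.7 (0.808). HEPH.2.2, at a mean of 192 CPM against 6.29 CPM for HEPH.1.2, had r = -0.42, and GSPATT00024075001.2.2 had r = -0.65. TBB.6.11 had r = -0.10. In between lay the tubulins TBB.2.11 (0.742), TBB.7.11 (0.707), TBB.3.11 (0.638), TBB.8.11 (0.584), TBB.5.11 (0.529), TBA3.1.3 (0.748), TBA3.3.3 (0.691), TBA1.3.7 (0.612), TBA1.1.7 (0.497) and TBA.1.2 (0.407). So did PLMN.2.3 (0.777), LSAMP.2.2 (0.708), MYNN.2.3 (0.694), MYNN.1.3 (0.610), mynn (0.354), SCP.4.7 (0.688), SCP.2.7 (0.540), SCP.1.7 (0.488), NOXA1.2.2 (0.667), CILP2.3.3 (0.392) and cilp2.1.2 (0.346). MLLT3_bis and SCP.3.7 had means of 0.679 and 0.35 CPM and were not ranked.

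Lists of marker names for other tissues bear on what the samples hold. Of 31 names for germ cells and oocytes, among them DDX4 and NANOS1, and of 15 nervous system names, 0 matched a named contig, so these lists say nothing about either tissue. In the list of 6 meiosis and oocyte names chosen after the names were seen, all had r above 0, the highest at 0.60. The median of this list was 0.49. Over all 1457 named rows the median was also 0.49, and 1047 of them had r above 0. MSH4, spata22 and TERB2, which act in meiosis, had r of 0.31, 0.42 and 0.60, and the oocyte factor ZAR1 had 0.52 at a mean of 1.41 CPM. Their summed level ran from 24.5 to 78.0 CPM in reference, 20.0 to 132 CPM in WWTP and 18.7 to 113 CPM in runoff clams. The amount of gonad in each sample is not given, and its part in these relations was not tested.

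Muscle names ran with vitellogenin in sign, and digestive names went both ways. All 19 muscle contigs with a mean of 1 CPM or more had r above 0 with Vg.1.2, with a median of 0.68 and none above 0.8. Over all 1457 named rows 1047 had r above 0, and the median was 0.49. The summed level of the muscle names (20 contigs) ran from 3619 to 8112 CPM in reference clams. It ran from 3416 to 20393 CPM in WWTP and from 3519 to 9073 CPM in runoff clams. Of 17 digestive hydrolases with a mean of 1 CPM or more, 10 had r below 0 and 7 above. The sum of the 18 contigs ran from 151 to 3340 CPM, 336 to 4804 CPM and 200.5 to 3278 CPM at the same sites. Hydrolase reads were thus present in every library, though GUN alone fell to 2.74 CPM in runoff individual 56. Of 20 haemocyte (blood cell) contigs, 14 had r above 0 and 6 below, with a median of 0.44. Their summed level had r = -0.75 with Vg.1.2, and BDEF.1.2, a defensin and the one with most reads, had r = -0.69. That sum ran from 383 to 686 CPM in reference, 381 to 1017 CPM in WWTP and 384 to 1007 CPM in runoff clams. For the matrix list the sum ran from 168 to 357 CPM, 198 to 276 CPM and 204 to 330 CPM, and for the cilium and tubulin list from 5552 to 12059 CPM, 4836 to 11942 CPM and 4409 to 9427 CPM.

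The comparison of sites asks, contig by contig, whether levels differed between sites, and it is no test of the set as a whole. Differences between site means did not choose the members, but their variation with vitellogenin within sites did. That variation is part of the error in this comparison, so the choice also bears on how many members reach a given p. The shares of members are therefore printed beside those of all contigs with nothing read from their difference. All 47 members were among the 57593 contigs tested. In WWTP against reference clams 0 of 47 members passed an adjusted p of 0.05 (edgeR; 1.47% of all contigs did), and 4 had an unadjusted p under 0.05, which is 8.51% of members against 14.5% of all contigs. In runoff against reference clams 0 passed (0.116% of all contigs) and 0 had such an unadjusted p (9.95% of all contigs). In WWTP against runoff clams 0 passed (1.06% of all contigs) and 5 had such an unadjusted p (13.5% of all contigs). DESeq2 called 0, 0 and 1 members, beside 2328, 814 and 1968 of all 57593 contigs. With limma-voom 1, 0 and 1 members were called, beside 2606, 391 and 1633 of all contigs. The median log2 fold change of the members was -0.16, -0.02 and -0.01 in the order above, against 0.01, 0.01 and -0.01 over all contigs. In no comparison did the 8 values of a member at a site lie clear of those at another. The share of all contigs whose levels lay clear is not given, so nothing is read from this about the members.

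With a median standard error of 0.37 on the log2 scale, changes of modest size could not be seen in most members. MGN2 came nearest to the threshold. Its lowest, median and highest level was 21.1, 24.6 and 29.0 CPM in reference, 24.8, 31.2 and 39.5 CPM in WWTP, and 17.6, 23.6 and 27.8 CPM in runoff clams. The WWTP clams lay high and overlapped both other sites. On the log2 scale WWTP clams differed by 0.34 (SE 0.116, edgeR adjusted p = 0.145) from reference and 0.40 (SE 0.116, edgeR adjusted p = 0.0883) from runoff clams. DESeq2 (adjusted p = 0.0223) and limma-voom (adjusted p = 0.0430) called the second of these and limma-voom the first (adjusted p = 0.0482).

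The other members with the lowest p moved in both directions. mllt3 had a log2 fold change of 0.62 (SE 0.262, edgeR adjusted p = 0.253) and CILP2.2.3 one of -1.40 (SE 0.65, edgeR adjusted p = 0.314) for WWTP against reference. For WWTP against runoff, CILP2.2.3 had -1.66 (SE 0.655, edgeR adjusted p = 0.238) and FBN1 -1.36 (SE 0.603, edgeR adjusted p = 0.311). For runoff against reference, PLG had -0.78, TEX10 -0.42 and PLMN.1.3 -0.67 (edgeR adjusted p = 0.667, 0.690 and 0.736). None of these values passed the threshold.

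By the way they were chosen, the members vary along vitellogenin within each site. A further fit, chosen after seeing the data, took log2 of Vg.1.2 as a term, so that sites were compared at equal Vg.1.2. The rule kept rows with a small spread around Vg.1.2 in these same clams, so the errors and p-values of members in this fit are too small by that choice, and other contigs were not chosen so. The counts that passed are therefore printed beside those of all contigs with nothing read from them. They were 11 of 47 members in WWTP against reference clams (edgeR, 4.01% of all contigs), 0 in runoff against reference clams (0.767% of all contigs) and 18 in WWTP against runoff clams (4.31% of all contigs). Unadjusted p under 0.05 was found in 18.8%, 14% and 19.4% of all contigs in the same order. What follows gives the fitted differences as a description, with standard errors that are too small for the same reason and with no test.

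Among the matrix members, FBN1 at equal Vg.1.2 differed by -1.08 (SE 0.207) on the log2 scale between WWTP and reference clams and by -1.68 (SE 0.21) between WWTP and runoff clams. CILP2.2.3 differed by -1.59 (SE 0.275) and -2.13 (SE 0.281), the lowest values of any member in both comparisons. CDC20, of the cell division machinery, differed by -0.75 (SE 0.186) and -1.41 (SE 0.19). On the positive side, mllt3 stood at 0.69 (SE 0.118) against reference and 0.38 (SE 0.119) against runoff clams. MGN2 stood at 0.37 in both. Members thus had fitted differences of both signs at equal Vg.1.2.

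These fitted differences kept their sign under the 31 other settings tried with this term, which were other scalings, Vg.2.2 as the term, lane, DESeq2, the exclusion of certain clams and each clam left out in turn. FBN1 ran from -1.19 to -0.87 against reference and from -1.77 to -1.61 against runoff clams, and CILP2.2.3 from -1.72 to -1.37 and from -2.22 to -2.01. CDC20 ran from -0.88 to -0.60 and from -1.47 to -1.32, and mllt3 from 0.59 to 0.77 and from 0.23 to 0.42. MGN2 ran from 0.23 to 0.43 and from 0.16 to 0.41. The settings share most of their clams and all share the choice of members.

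**Figure D4:**
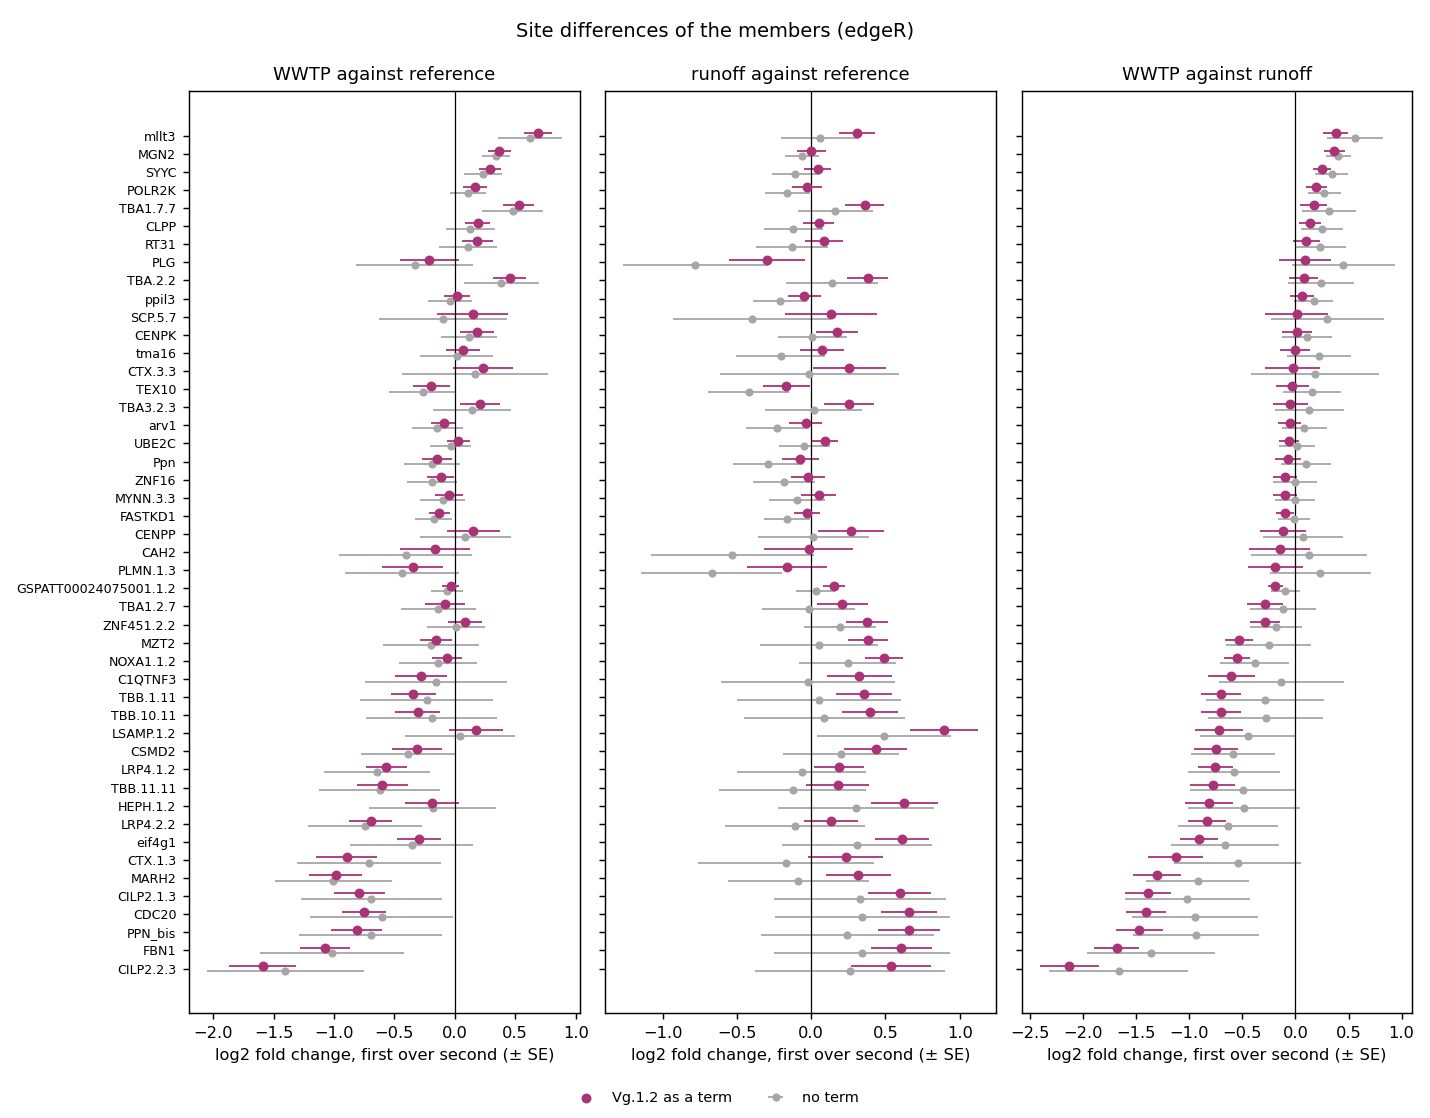
Log2 fold change of each member between sites (horizontal, points, with lines of ± 1 SE) without a term (grey) and with Vg.1.2 as a term (purple). The grey points of the WWTP panels lie between -1.66 and 0.62, and none passed. The purple errors are short by the choice of members, and FBN1, CILP2.2.3 and CDC20 stand at the lower left of both WWTP panels, with mllt3 and MGN2 on the right.

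The number of reads of a member for each 1000 reads of Vg.1.2 in the same library needs no scaling between libraries. It rests on the same reads and clams as the fit above and is no separate evidence. The fit gives each contig its own slope on Vg.1.2, whereas the ratio takes that slope as 1, so they can differ. For members with a slope well below 1, the ratio is also higher where Vg.1.2 is low. For FBN1 its lowest, median and highest value was 14.2, 20.1 and 52.4 in reference, 7.48, 12.1 and 19.7 in WWTP, and 32.2, 40.5 and 51.3 in runoff clams. The WWTP and runoff clams did not overlap, and the reference clams overlapped both. CDC20 stood at 8.93, 12.5 and 27.7 in reference, 5.90, 8.89 and 12.6 in WWTP, and 18.2, 23.0 and 37.9 in runoff clams, again with WWTP and runoff apart. CILP2.2.3 stood at 29.4, 40.5 and 112 in reference, 9.63, 18.5 and 26.8 in WWTP, and 50.8, 72.6 and 125 in runoff clams, so that the WWTP clams lay below all clams of both other sites.

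In all, 5 members (CDC20, FBN1, CILP2.1.3, CILP2.2.3 and PPN_bis) had ratios that were lower in every WWTP clam than in every runoff clam (0.0955% of 57592 contigs did). Against reference clams 1 member, CILP2.2.3, had such ratios (0.0226% of all contigs). Members were chosen in these same clams to follow Vg.1.2, so nothing is read from the shares of all contigs. Not all members had narrow ratios. Those of UBE2C ran from 11.8 to 348 in WWTP and from 18.6 to 666 in runoff clams. Ratios to Vg.2.2, which follows Vg.1.2 almost exactly, gave 5 and 1 members as well. For mllt3 the ratios overlapped between all sites, and the 2 clams lowest in Vg.1.2 held the highest values. Over the 8 clams of each site no member had ratios that set runoff and reference clams apart. The share of all contigs is not given for this comparison, so nothing is read from it. In lane 3 alone, with 4 clams per site, 12 members had ratios higher in every runoff than in every reference clam (1.59% of all contigs), and in lane 4 alone 1 member, LSAMP.1.2, did (0.142% of all contigs).

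**Figure D5:**
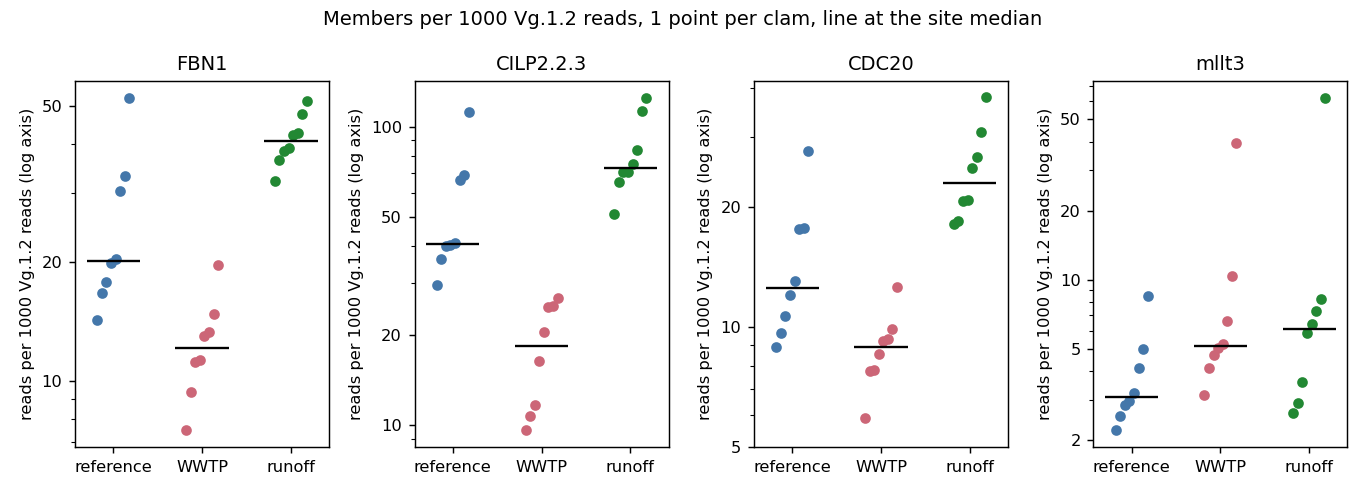
Reads of FBN1, CILP2.2.3, CDC20 and mllt3 for each 1000 reads of Vg.1.2 (vertical, log axis) by site, 1 point per clam, with a line at the median of the 8 clams. For the first 3 the WWTP points lie wholly below the runoff points, for CILP2.2.3 below the reference points too, and for mllt3 all 3 sites overlap.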

How the data were processed

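RNA-seq libraries of the digestive gland of 24 clams were analysed. The deposited table holds raw counts per contig, whole numbers with 1 column per library; no column was left out. Per the labels' protocols, a Promega SV kit served for RNA isolation and TruSeq RNA v2 for library preparation. BWA 0.7.12 and SAMtools 1.1 are named per the submitters' processing notes. The assembly, the naming of contigs, the counting rule and any prior filter were, in the sources used here, not given.

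Members were found on CPM of library totals. The members and all lists were chosen with earlier results of these data known, and several names of the added lists after their correlations were seen. After filterByExpr (minimum count 10) 57593 of 58291 contigs were fitted in edgeR 4.0.16 (R 4.3.3; TMM factors, robust quasi-likelihood, all 24 libraries, no covariate), with Benjamini-Hochberg adjustment within each of 3 comparisons and a threshold of 0.05. A positive log2 fold change means a higher level in the site named first. The script was tested on simulated data. A count of 0 allows up to 3 counts at 95% confidence, for counting error only.

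Members described with values are those with the 10 highest correlations, the 3 lowest p per comparison (none passed), the highest and lowest mean CPM, the widest and narrowest ranges, members on a list, the rows around the cut and all contigs sharing a member's base name. The ratios to Vg.1.2, and the further members and contigs given with values, were chosen after their values were seen. Alternatives were other scalings, filters and sites in the fit, lane as a term or alone, DESeq2 1.42.0, limma-voom (limma 3.58.1), other forms of the member rule, and each library left out. No sequences are shown, because the table holds none.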

Additional observations from a re-analysis of the deposited data

Results flagged for a closer look

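Within the 8 runoff clams, individual 60 stood apart at the low end for 10 members and both vitellogenin contigs. On the scale of log2(CPM + 1), its gap to the next clam was more than 0.526 of the range of the group. Chance flags about 1 in 20 such groups, and the members share their clams and their pattern, so these are 1 observation and not 12. In CPM, individual 60 and the next lowest runoff clam stood at 1.40 and 20.8 for CDC20, 15 and 173 for TBB.10.11, 10.3 and 121 for TBB.1.11, and 1.90 and 32.1 for FBN1. They stood at 14.7 and 217 for CILP2.1.3, 3.18 and 50.8 for CILP2.2.3, and 7.73 and 69.4 for C1QTNF3. For LRP4.2.2 they stood at 2.55 and 19.4, for LRP4.1.2 at 2.49 and 12.2, and for HEPH.1.2 at 0.408 and 4.28. Vg.1.2 was at 45.3 against 626 CPM, and Vg.2.2 at 87.6 against 1277 CPM. No WWTP or reference clam was flagged for a member or a vitellogenin contig, although WWTP individual 48 was as low in CDC20. Which clams are flagged depends on that scale and cut.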

How the results depend on the processing

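Over all libraries and settings no member changed direction in the values named here, and depth was not limiting except in the libraries where PPN_bis, CTX.1.3, CTX.3.3, MARH2, eif4g1 or HEPH.1.2 had 30 counts or fewer. No paired analysis was possible because the labels number no replicates, and the numbers used here follow accessions and pair no clams. Choices marked as added were made after seeing the data.

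The member rule gave back 26 of the 47 members with Spearman's correlation, 26 with lane 4 alone, 29 without the 2 libraries lowest in Vg.1.2 (added), and 36 to 47 with a library left out. The cause was not tested; single lanes and exclusions use fewer clams. Without any single library 0 members were called at any site. Members called for WWTP against reference were 1 with limma-voom and 11 with Vg.1.2 as a term (added). For WWTP against runoff they were 1 with DESeq2, 1 with limma-voom and 18 with that term. Members have small errors around that term by how they were chosen, so these counts support nothing. With the term, leaving out a library gave 4 (reference individual 31) to 12 for WWTP against reference, 0 to 1 for runoff against reference (1 without reference individual 21 or 22) and 11 (WWTP individual 46) to 18 for WWTP against runoff. Over all contigs, the same omissions gave 1141 to 3166, 98 to 912 and 1259 to 3741 calls in these comparisons. Without the 6 libraries lowest in GUN (added) the counts of members were 6 and 6 in the WWTP comparisons. Beside them stood 1383 contigs for WWTP against reference and 378 for WWTP against runoff. For runoff against reference with the term, lane as a further term gave 1, DESeq2 4 and leaving out the 2 clams of lowest Vg.1.2 gave 1, against 0.

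Contigs called by edgeR numbered 846 for WWTP against reference, 67 for runoff against reference and 609 for WWTP against runoff. Beside a count of 0, the number of contigs with an unadjusted p below 0.05 in edgeR follows in brackets. For the first, DESeq2 gave 2328, limma-voom 2606, library totals 165, upper-quartile factors 522, a fit of the 2 sites 516, lane 3 alone 0 (3975) and lane 4 alone 1. The added choices gave 504 without the 2 lowest in Vg.1.2, 268 without the 6 lowest in GUN and 2309 with the Vg.1.2 term, and single omissions gave 206 (WWTP individual 46) to 1342 (reference individual 25). For the second, DESeq2 gave 814, limma-voom 391, library totals 0 (4181), upper-quartile factors 25, 2 sites 11, lane 3 alone 0 (6708) and lane 4 alone 0 (6247). The added choices gave 31, 0 (5202) and 442, and single omissions 0 (without runoff individual 50) to 198 (without runoff individual 49). For the third, DESeq2 gave 1968, limma-voom 1633, 2 sites 115, lane 3 alone 0 (4411) and lane 4 alone 0 (4362). The added choices gave 50, 140 and 2483, and single omissions 112 (WWTP individual 38) to 1010 (WWTP individual 41). With library totals the median over all contigs moved, on the log2 scale, to -0.16, 0.04 and -0.20, so changes there are relative to that shift.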
